A study of Mus musculus with 2 samples.

Results

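The genes of the mitochondrial respiratory chain were examined in RNA-seq libraries of mouse ear skin. The set held 100 of the 34745 genes of the count table, chosen by name among protein-coding genes. It comprised the 13 protein-coding genes of the mitochondrial genome and 87 nuclear genes. The nuclear ones were the Nduf subunits of complex I (without the Ndufaf assembly factors), Sdha to Sdhd and the Uqcr genes with Cyc1. The Cox4 to Cox8 genes, the Atp5 genes and Tfam completed them. There were 2 libraries, 1 labelled wild type (WT) and 1 labelled KAT8-cKO, a conditional knockout of the histone acetyltransferase KAT8. All ears, in either group, carried imiquimod-induced inflammation: 30 mg of a 5% imiquimod cream had been applied daily over 3 days, and tissue was taken at day 4. Imiquimod is a TLR7 agonist that produces psoriasis-like skin inflammation. The labels do not give the promoter or cell type behind the conditional deletion, the strain, the age, or how many ears or animals a library holds.

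The respiratory chain passes electrons from NADH (complex I) and succinate (complex II) through complex III to oxygen at complex IV, and ATP synthase (complex V) uses the resulting proton gradient. Complexes I, III, IV and V are built from subunits of both genomes, while complex II is wholly nuclear-encoded. The mitochondrial genes are transcribed as long precursor RNAs by a dedicated polymerase and cut at the tRNAs between them, whereas each nuclear gene has a promoter of its own. KAT8 has been described in mitochondria as well as in the nucleus. Skeletal muscle is rich in mitochondria and uses its own isoforms of some complex IV subunits.

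The libraries held 12179608 and 13727524 counts. Kat8 itself was not lower under the KAT8-cKO label, with 219 counts under the WT label and 351 under the other (ratio of scaled counts 1.27, 95% interval 1.07 to 1.51). An exon of Kat8 overlaps Prss8 and the table has 1 value for the whole gene, so this checks the label weakly. Each is therefore called the library labelled WT or the library labelled KAT8-cKO. They also differed in sex-linked transcripts, Xist at 11891 and 6 counts and Ddx3y at 5 and 635, so sex and genotype label cannot be told apart. The epidermal keratin genes Krt5 and Krt14, which mark the labelled tissue, stood at 8602 and 12587 CPM under the WT label and at 12613 and 12064 CPM under the KAT8-cKO label. CPM are counts relative to the scaled library total. Over the whole keratinocyte list, however, 10 of 13 markers lay below 0, 6 of them lower by 2-fold or more and 1 higher by that size (median log2 ratio of KAT8-cKO over WT -0.47, summed level 39450 and 33212 CPM). Marker lists of other cell types differed as well. Of 22 skeletal muscle markers, 21 were lower by 2-fold or more under the KAT8-cKO label (summed level 23126 and 5130 CPM), as were 8 of 12 adipocyte markers (3233 and 564 CPM, 1 higher) and 10 of 12 measured neutrophil markers (15507 and 5590 CPM). Of 12 sebaceous markers 10 were at least 2-fold higher (2356 and 8760 CPM). None of the markers of these 4 lists was at 0 in either library. In bulk tissue, fewer cells of a type and less RNA per cell cannot be told apart.

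In the library labelled KAT8-cKO all 13 mitochondrially encoded genes were lower, while the nuclear-encoded genes lay close to their WT level. Summed over the genes, the mitochondrial transcripts went from 80438 to 59344 CPM, 1.36-fold lower, and the nuclear-encoded ones from 12404 to 11913 CPM (ratio 0.960). The log2 ratio used below is that of KAT8-cKO over WT after adding 1 CPM to each, which understates differences at low levels. Its median was -0.51 over the 13 mitochondrial genes (range -0.69 to -0.24) and -0.10 over the 85 measured nuclear genes, those with at least 1 CPM in either library. Over all 15240 measured genes the median was 0.01. With library totals alone as the scale the nuclear median turned to 0.06 and the mitochondrial median to -0.35, beside 0.16 over all genes, so the direction of the nuclear median depends on the scale. On that scale the nuclear medians of complexes I, II, III and V also turned positive (0.08, 0.13, 0.06 and 0.10), while that of complex IV was -0.02 and 13 of 13 mitochondrial genes stayed below 0. The gap between the genomes was 0.41 with the TMM scale of edgeR used here and between 0.38 and 0.44 in the 12 alternatives run. A change of scale shifts both medians by nearly the same amount. The alternatives that changed only the scale therefore could not move the gap and do not check it.

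Differences of 2-fold were rare among these genes. Cox6a2 and Cox8b were lower by that size, 2 of 85 measured nuclear-encoded genes, and none was higher. Among all measured genes 8.63% were at least 2-fold lower and 4.56% at least 2-fold higher. Below 0 lay 13 of 13 mitochondrial and 52 of 85 nuclear genes, against 49.4% of all measured genes. With library totals alone as the scale, 29 of the 85 nuclear genes lay below 0, so the nuclear number depends on the scale. The mitochondrial genes are cut from shared long precursors, so they are not 13 separate observations. At or below -0.25 on the log2 scale were 12 of 13 mitochondrial and 20 of 85 nuclear genes, against 31.7% of all genes, and at or above 0.25 were 5 nuclear genes, against 30.9%. The exact 95% interval of the ratio on the TMM scale lay wholly below 1 for 13 mitochondrial and 34 nuclear genes. It lay wholly above 1 for 19 nuclear genes and included 1 for 32. Another scale would shift every interval. With 1 library per genotype there is no replicate error, no test and no p-value. Every difference describes these 2 libraries.

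**Figure D1:**
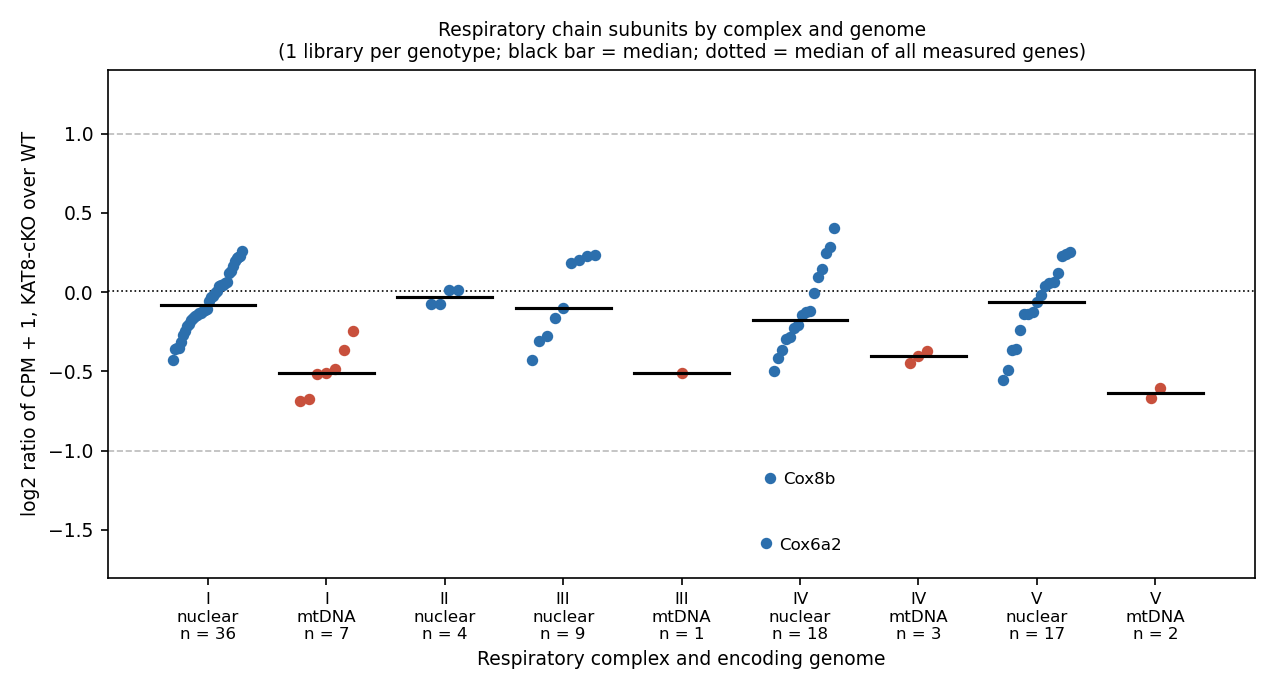
The log2 ratio of each measured gene of complexes I to V (y axis, KAT8-cKO over WT, CPM + 1) is shown by respiratory complex and encoding genome (x axis). There is 1 point per gene, a black bar at each median, dashed lines at a 2-fold difference and a dotted line at the median of all measured genes. Tfam, which belongs to none of the complexes, is not drawn. Every mitochondrial gene sits below 0, the nuclear genes of complexes I to V straddle it, and Cox6a2 and Cox8b lie below the lower dashed line.

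**Figure D2:**
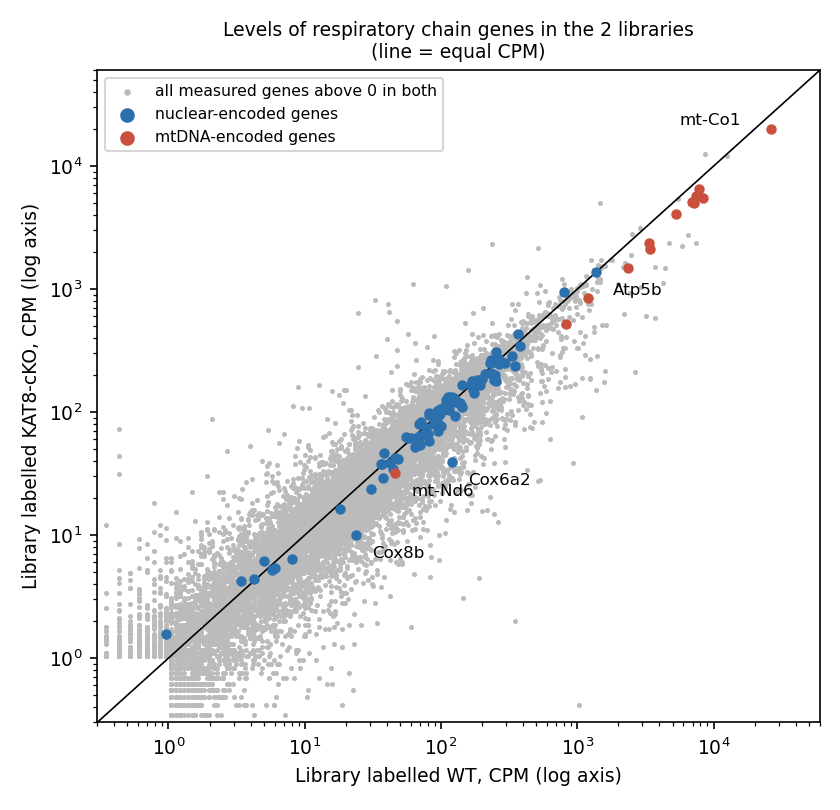
CPM in the library labelled KAT8-cKO (y axis, log scale) are plotted against CPM in the library labelled WT (x axis, log scale) for all measured genes above 0 in both (grey), nuclear-encoded respiratory chain genes (blue) and mitochondrially encoded ones (red). The mitochondrial genes lie under the line of equal CPM over their whole range, from mt-Nd6 at 46.1 and 32.0 CPM to mt-Co1 at 26467 and 20060 CPM.

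The 13 mitochondrially encoded genes supplied 7.61% of all counts under the WT label (exact 95% interval 7.59% to 7.62%) and 6.27% under the KAT8-cKO label (6.26% to 6.29%). Per count of the nuclear-encoded genes there were 6.48 mitochondrial counts in the first library and 4.98 in the second. These intervals cover counting error only, since PCR copies of a molecule were not told apart. The skeletal muscle markers, whose tissue is rich in mitochondria, were lower in the same library (median log2 ratio -1.98). Among 188 genes outside the set that averaged 500 CPM or more, 124 lay below 0, with a median of -0.17, and 12 of the 13 mitochondrial genes are as abundant. The part of either in the mitochondrial values was not tested.

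Complex I takes 7 core subunits from mitochondrial DNA, and these spanned the range of the mitochondrial differences. mt-Nd2 had 39538 counts under the WT label and 30912 under the KAT8-cKO label, a scaled ratio of 0.621 (interval 0.611 to 0.630). mt-Nd3 had 9565 and 7538 counts (0.626, interval 0.607 to 0.645). At the other end, mt-Nd1 had 89231 and 94850 counts, which scale to 7745 and 6536 CPM (0.844, interval 0.836 to 0.852). mt-Nd1 and mt-Nd2 are neighbours on the same precursor, from 2751 to 3707 and from 3914 to 4951 of chromosome M (GRCm38, plus strand), and their intervals are far apart. Between them in size lay mt-Nd4l (log2 ratio -0.51), mt-Nd6 (-0.51), mt-Nd5 (-0.49) and mt-Nd4 (-0.36). mt-Nd6 is the only subunit gene on the opposite strand (13552 to 14070, minus), and its RNA is known to carry little or no poly(A) tail. In these libraries, made after capture of mRNA on beads, it had 531 and 465 counts, or 88.8 and 61.7 CPM per kb of transcript, against 1823 and 1301 CPM per kb for mt-Nd5, which it overlaps by 14 bases.

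Complex IV receives its catalytic core from mt-Co1, mt-Co2 and mt-Co3, and complex III its cytochrome b from mt-Cytb. mt-Co1 was the most abundant of the 13 genes per length, at 17131 CPM per kb under the WT label and 12984 under the KAT8-cKO label, from 304923 and 291131 counts (ratio 0.758, interval 0.754 to 0.762). mt-Co2 and mt-Co3 had ratios of 0.774 and 0.733. The 3 complex IV genes thus lay near each other, with log2 ratios of -0.37 to -0.45. mt-Cytb, with 82469 and 72876 counts, was lower by more (ratio 0.701, interval 0.695 to 0.709).

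The ATP synthase genes mt-Atp8 and mt-Atp6 encode membrane subunits of complex V and share a stretch of sequence, shown here because reads inside it belong to both genes. It spans chrM:7927-7969 (GRCm38, plus strand), 43 bases, in capitals below, with 20 bases on either side. The lower-case bases on the left end the part of mt-Atp8 outside the overlap, and those on the right continue mt-Atp6.
mt-Atp8 and mt-Atp6 overlap: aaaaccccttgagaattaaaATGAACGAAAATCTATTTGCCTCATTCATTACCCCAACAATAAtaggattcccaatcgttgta
mt-Nd4l and mt-Nd4 overlap: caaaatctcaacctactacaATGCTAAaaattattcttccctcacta
The second line shows the 7 bases (chrM:10167-10173) that mt-Nd4l and mt-Nd4 have in common. Each pair is carried on 1 mature RNA. mt-Atp8 had 26872 and 21335 counts (ratio 0.630, interval 0.619 to 0.642) and mt-Atp6 95497 and 79155 (0.658, interval 0.652 to 0.664). mt-Nd4l and mt-Nd4 had ratios of 0.700 (interval 0.683 to 0.717) and 0.777 (0.769 to 0.786). Within each pair the shorter upstream gene was lower by more, and neither pair's intervals overlapped.

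Nuclear copies of mitochondrial DNA also took counts. A block of 7 annotated pseudogenes on chromosome 1 copies 7 of the mitochondrial genes at 99.7% to 100% identity, among them Gm10925 (chr1:24613974-24614651, mt-Atp6) and Gm28661 (chr1:24614885-24615565, mt-Co2). Gm10925 had 15942 and 13882 counts, and Gm28661 had 12884 and 13357. All 11 copies found, on chromosomes 1, 2 and 13, summed to 58982 and 57089 counts, 6.36% and 6.63% of the mitochondrial counts in the respective library. With these added back the log2 ratio of each mitochondrial gene stayed below 0, from -0.24 for mt-Nd1 to -0.69 for mt-Nd2. The largest shift was that of mt-Nd3, from -0.68 to -0.65.

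**Figure D3:**
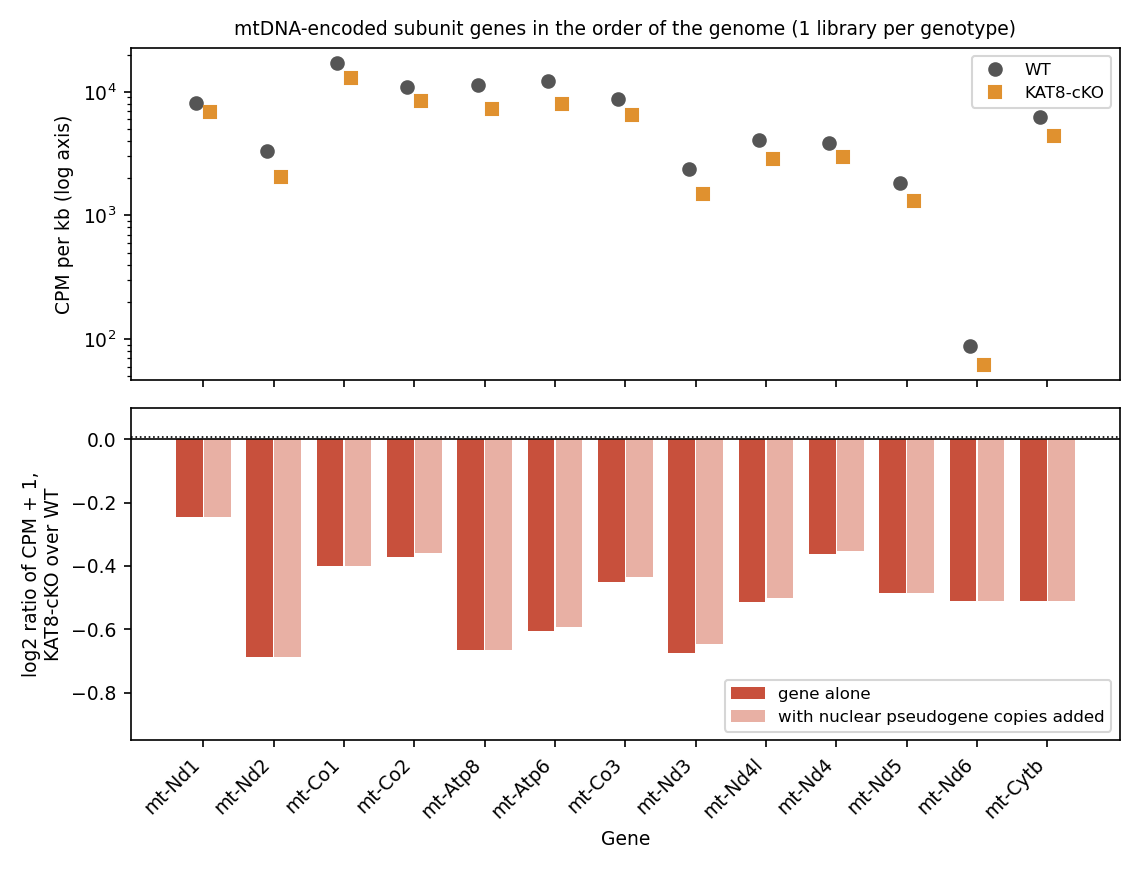
The upper panel gives the level of each mitochondrially encoded gene per kb of transcript (y axis, log scale) in the library labelled WT (circles) and the library labelled KAT8-cKO (squares), in the order of the mitochondrial genome (x axis). The lower panel gives the log2 ratio for the gene alone and with its nuclear pseudogene copies added: every bar points down, from mt-Nd1 at -0.24 to mt-Nd2 at -0.69, and adding the copies moves no gene by more than mt-Nd3.

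The 36 nuclear-encoded genes of complex I, the NADH dehydrogenase, were all measured and none differed by 2-fold. Their median log2 ratio was -0.08, with 14 above and 22 below 0, a range of -0.43 to 0.26 and a summed level of 3031 and 2941 CPM. The 7 nuclear core subunits, which carry the flavin and the iron-sulfur clusters, had a median of 0.13, and the 29 accessory subunits, which surround and stabilise the core, one of -0.11. Ndufs7 and Ndufs8, core subunits with iron-sulfur clusters on the way to the quinone site, had 943 and 1423 counts and 788 and 1164 counts. Their ratios were 1.20 (interval 1.10 to 1.30) and 1.17 (1.07 to 1.29). Ndufv1, which binds NADH and flavin, went from 109 to 125 CPM. The core was not uniform, however, since Ndufv2, the partner of Ndufv1, went from 137 to 119 CPM.

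Among accessory genes of complex I, Ndufa6 had the lowest ratio, with 1085 counts under the WT label and 1013 under the KAT8-cKO label (0.741, interval 0.680 to 0.808). Ndufab1, an acyl carrier protein that also serves mitochondrial fatty acid synthesis, had 434 and 424 counts (0.776), and Ndufa5 had 803 and 789 (0.780). The highest accessory ratios were those of Ndufa11 (1.17, interval 1.07 to 1.27) and Ndufa10 (1.16, interval 1.09 to 1.24). Ndufb9 had the highest level per length, 243 and 215 CPM per kb. By name group, the median log2 ratio was -0.13 for 13 Ndufa genes, -0.01 for 10 Ndufb genes and 0.05 for 8 Ndufs genes. Ndufs5 has a copy, BC002163, with 251 and 200 counts beside its own 489 and 557, so its ratio is uncertain. The lowest level was that of Ndufb4, with 49 and 64 counts, where an interval of 0.704 to 1.54 leaves the direction undetermined.

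Complex II, the succinate dehydrogenase that is also a step of the TCA cycle, has 4 genes. On the TMM scale their log2 ratios ran from -0.07 to 0.01 (median -0.03) and each interval of the ratio included 1. With library totals alone, however, their median was 0.13, beside 0.16 over all genes. On either scale their median was above the nuclear medians of the other complexes. The flavoprotein gene Sdha had 3086 and 3917 counts, 268 and 270 CPM (ratio 1.01, interval 0.961 to 1.06). Sdhd, a membrane anchor, stood at 182 and 184 CPM, the other anchor gene Sdhc at 128 and 121 CPM, and the iron-sulfur subunit gene Sdhb at 130 and 123 CPM. This complex has no mitochondrially encoded partner.

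Complex III, the cytochrome bc1 complex, split into genes above and below 0. Of its 9 nuclear genes 4 had ratios above 1 and 5 below, and the intervals of all 9 excluded 1. The principal transcripts of the 4 genes above 1 had 55.5% to 58.9% GC and those of the 5 below 42.2% to 50.2%. The part of base composition in this split was not tested. The core protein gene Uqcrc1 had 4239 and 6283 counts (ratio 1.18, interval 1.13 to 1.22), the cytochrome c1 gene Cyc1 2663 and 3820 (1.14, interval 1.08 to 1.20), and the small subunit genes Uqcr10 and Uqcr11 ratios of 1.15 and 1.18. In the other direction, Uqcrb had 1451 and 1353 counts (0.740, interval 0.687 to 0.798). The gene of the Rieske iron-sulfur protein, Uqcrfs1, had 2859 and 2901 (0.805, interval 0.765 to 0.848), and Uqcrh a ratio of 0.826. Uqcrc2, the other core protein gene, and Uqcrq were nearer 1, at 0.891 and 0.932. These ratios move together with the scale: with library totals alone all are higher, and the median of the complex goes from -0.10 to 0.06.

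Complex IV, the cytochrome c oxidase, held both nuclear genes past 2-fold, and they are isoforms typical of striated muscle. Cox6a2 (chromosome 7, ENSMUSG00000030785), the heart and skeletal muscle form of subunit 6A, had 1382 counts under the WT label and 571 under the KAT8-cKO label, 120 and 39.3 CPM. It was 3.05-fold lower (interval 2.76 to 3.37). Its exons overlap those of Itgad by 70 bases, where counts may be split. Cox8b (chromosome 7, ENSMUSG00000025488), a form of subunit 8 found in muscle and brown fat, had 272 and 144 counts, 23.6 and 9.92 CPM, 2.38-fold lower (interval 1.94 to 2.93). The third striated form, Cox7a1, had 93 counts in each library, a ratio of 0.794 whose interval of 0.589 to 1.07 includes 1. The muscle markers went the same way, with Acta1 (skeletal actin) at 3738 and 579 CPM, Myh1 (a fast myosin) at 2910 and 1035 CPM and Atp2a1 (the calcium pump of fast fibres) at 3204 and 603 CPM. Of 9 slow and oxidative muscle markers, some of them also on the first list, 4 were at least 2-fold lower (median -0.78, summed level 546 and 354 CPM). Ckmt2, the mitochondrial creatine kinase of striated muscle, was at 136 and 62.4 CPM and myoglobin (Mb) at 227 and 185 CPM. The brown fat marker Ucp1 had too few counts to be measured. The part of muscle in the isoform values was not tested.

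The ubiquitous partner of each striated isoform lay on the other side of the WT level or near it. Cox6a1 went from 251 to 305 CPM (ratio 1.22, interval 1.16 to 1.28), Cox8a from 227 to 252 CPM (1.11, interval 1.05 to 1.17) and Cox7a2 from 114 to 104 CPM (0.915, interval 0.849 to 0.985). Cox6a2 made up 32.3% of the counts of its pair under the WT label (exact interval 30.9% to 33.8%) and 11.4% under the KAT8-cKO label (10.5% to 12.3%). The share of Cox8b in its pair was 9.42% (8.38% to 10.5%) and 3.79% (3.20% to 4.45%). For Cox7a1 the shares, 6.61% and 5.78%, had overlapping intervals. Per length, the Cox6a2 shares were 28.6% and 9.76%. Shares of a pair do not depend on how the libraries are scaled.

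**Figure D4:**
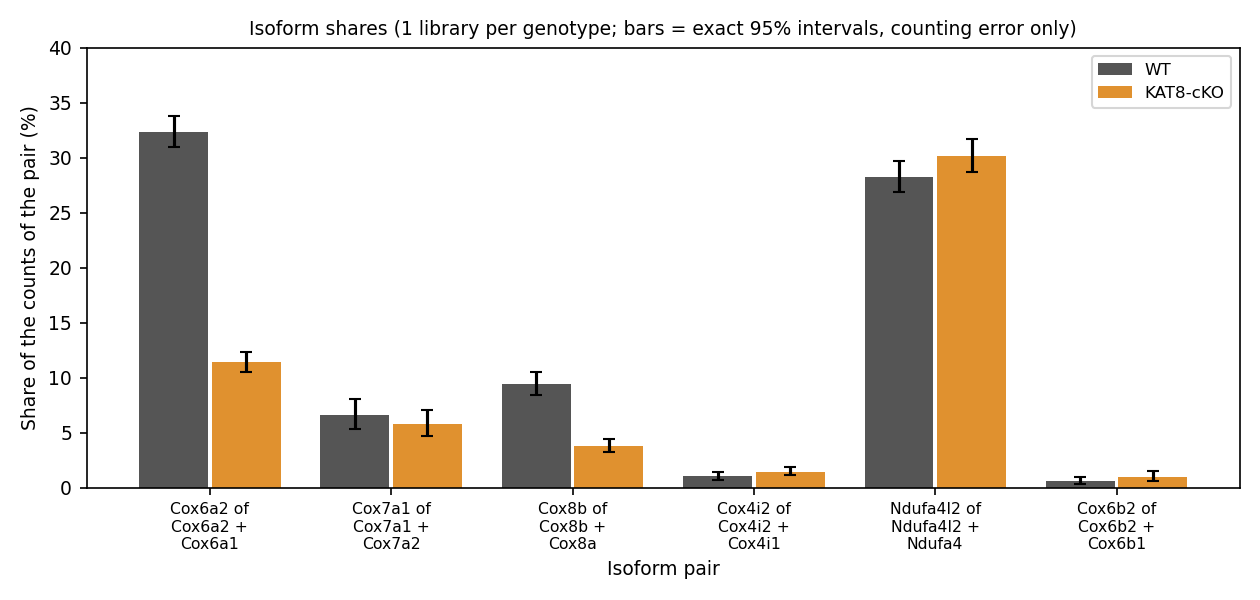
Bars give the share of the first-named isoform in the counts of its pair (y axis, percent) for 6 pairs (x axis) in the library labelled WT (grey) and the library labelled KAT8-cKO (orange), with exact 95% intervals for counting error. Cox6a2 stands at 32.3% and 11.4% and Cox8b at 9.42% and 3.79%, while the intervals overlap for Cox7a1, Cox4i2, Ndufa4l2 and Cox6b2.

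The other genes of complex IV differed by less than 1.5-fold apart from Cox6b2, which rested on 11 and 23 counts (interval of the ratio 0.777 to 3.77). Cox4i1, the main form of the regulatory subunit 4, had 3839 and 4137 counts (ratio 0.855, interval 0.818 to 0.894). Its hypoxia-associated form Cox4i2 had 39 and 61 counts, 1.01% and 1.45% of the pair. Ndufa4, named for complex I but now counted as a complex IV subunit, had 2918 and 2602 counts (0.708, interval 0.671 to 0.747), the lowest ratio of the complex after Cox6a2 and Cox8b. Its paralogue Ndufa4l2, a target of hypoxia-inducible factor, had 1151 and 1124 counts (0.775, interval 0.713 to 0.842). The Ndufa4l2 share of the pair was 28.3% and 30.2%. Cox7b, on the X chromosome, went from 244 to 183 CPM (0.750). The other X-linked members, Ndufa1 and Ndufb11 of complex I, had ratios of 0.910 and 1.01. Cox7a2l, which joins complexes III and IV into supercomplexes, was level at 167 and 166 CPM. Cox7b2 and Cox8c had 0 counts in both libraries, which allows up to 3 counts in each. Over the 18 measured nuclear genes of the complex the median log2 ratio was -0.18.

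Complex V, the ATP synthase, had 17 nuclear genes within 2-fold, with a median log2 ratio of -0.06 and 7 above 0. The catalytic head is formed mainly by the products of Atp5a1 and Atp5b. Atp5b was the most abundant nuclear gene of the set, with 15874 and 19770 counts or 719 and 711 CPM per kb (ratio 0.989, interval 0.968 to 1.01). Atp5a1 had 9203 and 13708 counts (1.18, interval 1.15 to 1.21). The lowest ratios were those of Atp5f1, a stalk subunit, with 3996 and 3417 counts (0.679, interval 0.648 to 0.711), and of Atp5mpl, a small membrane protein, with 939 and 837 (0.708). Exons of Atp5f1 overlap those of Wdr77. Of the genes for the identical c subunit of the membrane ring, Atp5g3 led with 4359 and 4985 counts. Atp5g1 had 697 and 901 counts and Atp5g2 58 and 90. Per kb they stood at 523 and 475, 12.8 and 13.2, and 6.89 and 8.48 CPM. The gap between Atp5g3 and Atp5g1 is wider per kb because their principal transcripts were 723 and 4715 bases long. Atp5g2 has a copy, Gm10175 on chromosome 7, identical over 645 bases, with 1 and 2 counts. Atp5h has a copy, Gm10250 on chromosome 15, that took 1388 and 1738 counts beside 1077 and 1479 for the gene itself, and Atp5l has 2 copies with 58 and 60 counts in sum beside 66 and 75. Levels of these genes are uncertain.

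Per length, mitochondrial transcripts stood far above nuclear ones in either library. The median level was 6257 CPM per kb under the WT label and 4389 under the KAT8-cKO label for the 13 mitochondrial genes, and 119 and 110 CPM per kb for the 85 nuclear genes. Among nuclear genes, medians under the WT label were 82.6 CPM per kb for complex I, 103 for complex II, 182 for complex III, 185 for complex IV and 153 for complex V. Under the KAT8-cKO label they were 80.6, 101, 174, 171 and 149, so the order differed only between complexes III and IV, which lay close together in each library.

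Other groups of nuclear genes for mitochondrial proteins had medians near that of all genes. Median log2 ratios were 0.03 over 46 assembly factors of the complexes, 0.02 over 79 mitochondrial ribosomal proteins, 0.00 over 16 TCA cycle enzymes, 0.08 over 20 carrier, import and outer membrane genes, and 0.08 over 27 genes of mitochondrial DNA replication, transcription and RNA processing. None of the ribosomal, TCA cycle or carrier genes differed by 2-fold. Their most abundant members by CPM included Mrpl12 of the large ribosomal subunit at 154 and 187 CPM, Mrpl20 of the same subunit at 93.7 and 98.3 and the phosphate carrier gene Slc25a3 at 617 and 616. Among the assembly factors only Pet117 did, with 49 counts and 1 count, and it shares exons with Kat14. Of the 27 genes of mitochondrial DNA expression 16 lay above 0 and 11 below. Fastkd1 was the 1 gene past 2-fold, and Polrmt, Twnk, Slirp, Mterf2 and Lrpprc are named after their values were seen. Tfam, a member of the set, which packages mitochondrial DNA and starts its transcription, had 442 and 678 counts (ratio 1.22, interval 1.08 to 1.38). Polrmt, the mitochondrial RNA polymerase, had 244 and 626 counts (2.04, interval 1.75 to 2.37), a log2 ratio of 0.99 just under the 2-fold rule with 1 CPM added. The replicative helicase gene Twnk had 254 and 552 (1.73) and Fastkd1, a mitochondrial RNA-binding protein gene, 81 and 232 (2.27, interval 1.76 to 2.97). Slirp, which with Lrpprc stabilises mitochondrial mRNAs, went the other way with 383 and 243 counts (0.504), while Lrpprc had 823 and 1295 (1.25). Slirp shares exons with Snw1 and Alkbh1. Mterf2, a gene of the mitochondrial transcription termination factor family, had 74 and 41 counts (0.440, interval 0.293 to 0.653), a log2 ratio of -0.96 just inside the same rule, and shares exons with Tmem263.

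Coactivators of mitochondrial biogenesis did not all differ in the same direction. Ppargc1a (PGC-1alpha), abundant in muscle and brown fat, had 89 and 47 counts (ratio 0.419, interval 0.288 to 0.603), and its relative Ppargc1b had 95 and 276 (2.31, interval 1.82 to 2.94). Pprc1, a more abundant relative, was higher too, with 601 and 1059 counts (interval of the ratio 1.26 to 1.55). It shares exons with Ldb1. The lower level was thus that of Ppargc1a alone, and Ppargc1a and Ppargc1b rest on far fewer counts than Pprc1. Over the 13 regulators the median was -0.01, and Esrra and Yy1, well expressed members, lay at 0.03 and -0.06. A contrast like that between Ppargc1a and Ppargc1b held for the adenine nucleotide carriers of the inner membrane. Slc25a4, the muscle form, chosen here after its value was seen, had 5920 and 4695 counts (0.630, interval 0.606 to 0.654), and Slc25a5, the form of other tissues, 6995 and 11131 (1.26, interval 1.23 to 1.30). The citrate synthase gene (Cs) had 4575 and 7911 counts (1.37, interval 1.32 to 1.42). It was the only 1 of the 16 TCA cycle enzyme genes with a log2 ratio of 0.25 or more. In that list 2 genes lay at or below -0.25, and its median was 0.00. In the same library the skeletal muscle list was lower (21 of 22 by 2-fold, median -1.98). Its part in these values was not tested.

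**Figure D5:**
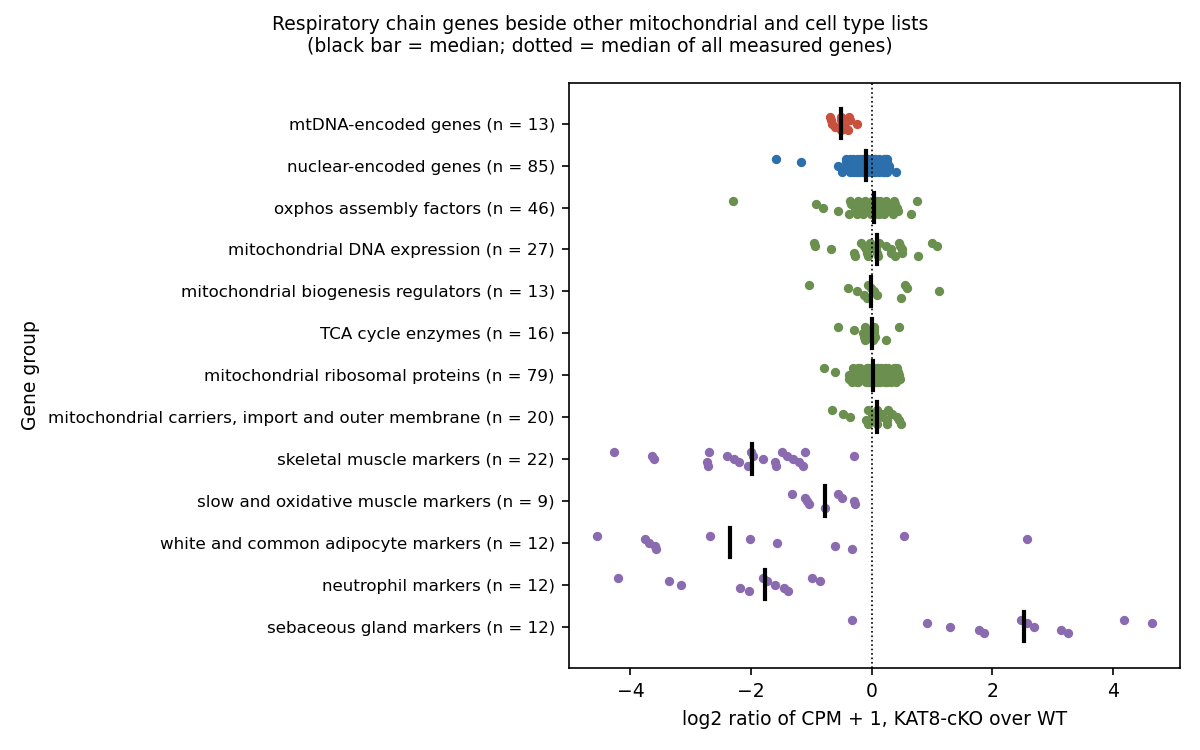
Each point is the log2 ratio of 1 measured gene (x axis, KAT8-cKO over WT, CPM + 1) and each line of points a gene group (y axis), with a black bar at the median and a dotted line at the median of all measured genes. The mitochondrially encoded genes form a narrow cluster with a median of -0.51, the nuclear-encoded and other mitochondrial groups centre between -0.10 and 0.08, and the medians of the skeletal muscle, adipocyte and neutrophil markers lie at -1.98, -2.36 and -1.77, with single markers such as Mb (-0.30) and Cidea (2.57) well to the right of them.

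Base composition moved with the ratios. Across the 85 measured nuclear genes the log2 ratio and the GC content of the principal transcript had a Pearson correlation of 0.24 and a Spearman correlation of 0.39. Across 14103 other nuclear protein-coding genes these were 0.19 and 0.25. These are correlations across genes of the same pair of libraries, and genes are not independent replicates. The third of the members lowest in GC (40.2% to 49.0%) had a median log2 ratio of -0.16 and the third highest in GC (54.6% to 60.4%) one of 0.12. Other genes that averaged 20 CPM or more had medians of -0.08 and 0.19 over the same ranges. In the middle range the members were at -0.11 and the other genes at 0.09, so the members lay lower in each range and by the most in the middle one. The mitochondrial transcripts had a median GC content of 37.1%, under that of every nuclear member measured, and the part of base composition in their lower level was not tested. The core and accessory genes of complex I had medians of 53.8% and 51.7% GC and of 1623 and 763 bases in transcript length. Length and log2 ratio had a Pearson correlation of 0.20 and a Spearman correlation of 0.23 across the 85 nuclear genes. Across the 14103 other genes these were 0.06 and 0.09. The part of GC content or length in the difference between core and accessory genes was not tested.

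The promoters of the nuclear members were compared in the RefSeq windows (GRCm38.p6) of 250 bases upstream of the start, available for 68 of 87 genes. The binding motif of NRF1, a factor long linked to respiratory genes, was searched on both strands as GCGCA followed by any base and GCGC, and was found in 12 of 68 member windows (17.6%) and in 5.30% of 17492 windows of protein-coding genes. The core of ETS family sites, CCGGAAG, which GABPA binds, was in 12 (17.6%) and in 9.13% of all. AANATGGC, the core of YY1 sites, was in 4 members (5.88%, against 3.74%), CAGCTG, an E-box bound by muscle factors, in 6 (8.82%, against 11.6%) and TATAAA in 6 (8.82%, against 12.4%). The median log2 ratio was 0.03 over 12 measured members with the NRF1 motif and -0.06 over 55 without. With and without the other motifs it was -0.01 and -0.06 for ETS, -0.01 and -0.06 for YY1, -0.13 and 0.00 for the E-box and -0.13 and -0.03 for TATAAA, over 4 to 12 members with each. The windows below belong to isoforms whose levels went apart, with matches in capitals. Cox6a1 (chr5:115348959-115349208, minus strand) holds 2 NRF1 matches, beginning 162 and 117 bases before the start, and an ETS match 16 bases before it. Cox8b (chr7:140900447-140900696, minus strand) holds the E-box 19 bases before the start, and Cox8a (chr19:7217617-7217866, minus strand) holds none of the 5 motifs.
Cox6a1: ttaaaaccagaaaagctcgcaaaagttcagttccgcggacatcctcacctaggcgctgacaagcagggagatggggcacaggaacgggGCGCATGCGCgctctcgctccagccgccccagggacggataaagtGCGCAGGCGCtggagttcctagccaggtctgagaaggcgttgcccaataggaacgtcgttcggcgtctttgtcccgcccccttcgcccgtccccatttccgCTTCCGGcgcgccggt
Cox8a: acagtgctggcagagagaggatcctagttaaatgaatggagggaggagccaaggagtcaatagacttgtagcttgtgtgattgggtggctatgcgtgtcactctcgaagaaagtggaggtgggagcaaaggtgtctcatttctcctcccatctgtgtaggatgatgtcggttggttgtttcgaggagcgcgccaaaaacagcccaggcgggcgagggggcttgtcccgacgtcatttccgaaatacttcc
Cox8b: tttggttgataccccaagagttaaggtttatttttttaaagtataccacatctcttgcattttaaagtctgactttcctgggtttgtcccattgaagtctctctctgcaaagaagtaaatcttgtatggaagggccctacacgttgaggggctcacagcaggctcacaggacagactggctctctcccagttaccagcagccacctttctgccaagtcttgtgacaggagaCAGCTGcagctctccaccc
A match is a string of letters and says nothing of binding in this tissue.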

How the data were processed

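The authors deposited a table of raw counts per gene, 1 column per library and 1 library per genotype. HISAT2, StringTie 1.3.0, edgeR and the mm10 build are named in the submitters' processing notes. For the counting tool, annotation release and strand setting nothing is given in the sources used here. Gene IDs were matched to GENCODE M21, which gave 34344 of 34745 a symbol; IDs without one held 0.0783% and 0.0597% of counts.

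Library totals were scaled with TMM (edgeR 4.0.16, R 4.3.3; factors 0.946 and 1.06), and 1 count equalled 0.0868 and 0.0689 CPM. A gene counted as measured from 1 CPM in 1 of the libraries. A difference was called at a 2-fold ratio after adding 1 CPM. Intervals of ratios and shares are exact 95% Clopper-Pearson intervals (scipy 1.17.1) and cover counting error only. With 1 library per genotype no test was run. Per-length levels used the principal transcript. Pseudogene copies were found with BLAST 2.17.0 (at least 95% identity over at least 100 bases and 50% of the pseudogene). An exon of another gene overlapped 34 of 98 measured members, where counts may be split. Calculations were checked on simulated data.

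The members and gene lists were chosen with earlier results of these data known. Named were every mitochondrial gene, each tissue isoform with its partner, per complex the genes past 2-fold or else the 3 highest and 3 lowest ratios and the most abundant per length, and from each list the genes past 2-fold or else the 2 most abundant (3 for markers); others are named for their role. Other scalings (library total, DESeq2 1.42.0, totals without mitochondrial or the 50 most abundant genes), pseudocounts, filters and member sets were tried. Values of some single genes are not reported here.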

Additional observations from a re-analysis of the deposited data

How the results depend on the processing

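Of 163 values recomputed under an alternative, 111 stayed within the limit set for them and 52 moved past it. For medians the limit was the median half-width of the single-gene counting intervals of the group. For the gap between the genomes it was that of the nuclear genes. For shares it was the exact interval, and for numbers of genes past 2-fold a ratio rule without an interval. The medians of the nuclear genes and of their complexes I, II, III and V changed sign under some scalings. With library totals alone the nuclear median log2 ratio was 0.059 and the mitochondrial one -0.35. The nuclear medians of complexes I to V were then 0.075, 0.13, 0.059, -0.021 and 0.098, and the mitochondrial medians of complexes I, III, IV and V -0.35, -0.35, -0.24 and -0.47. With totals that left out the mitochondrial genes the medians were 0.038 and -0.37, by complex 0.055, 0.11, 0.038, -0.041 and 0.077 for nuclear and -0.37, -0.37, -0.26 and -0.49 for mitochondrial genes. With totals that left out the 50 most abundant genes the mitochondrial median was -0.40, the nuclear medians of complexes II to V 0.077, 0.0061, -0.072 and 0.045, and the mitochondrial ones -0.41, -0.40, -0.29 and -0.53. A pseudocount of 5 CPM left 1 nuclear gene past 2-fold and gave -0.49 for the mitochondrial genes and for those of complex I. Without genes whose exons overlap another gene, 1 nuclear gene was past 2-fold (Cox6a2 was left out), the mitochondrial median was -0.46, nuclear complex III 0.19, and mitochondrial complexes I and IV -0.68 and -0.39. Without the striated isoforms 0 nuclear genes were past 2-fold, by construction. Without genes that have a pseudogene copy, an alternative chosen after seeing the data, mitochondrial complexes I and V were at -0.38 and -0.67. Per 100 counts of nuclear protein-coding genes there were 8.49 and 6.88 mitochondrial counts. Per length the shares of Cox6a2, Cox7a1, Cox8b and Ndufa4l2 in their pairs were 28.6%, 10.6%, 13.7% and 20.5% under the WT label and 9.76%, 9.33%, 5.68% and 22.0% under the KAT8-cKO label. The cause of these shifts was not tested beyond the construction of each alternative. No paired analysis was possible because each genotype has 1 library, and for the same reason no replicate could be left out. Depth limits the 9 nuclear genes with fewer than 100 counts in a library, Cox7a1, Cox4i2 and Cox6b2 among them.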

Other observations

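Marker lists of cell types not described above also differed between the libraries. Under the KAT8-cKO label 6 of 6 measured red cell markers were lower by 2-fold or more, with a summed level of 172 and 9.03 CPM. Of 13 monocyte and macrophage markers 6 were at least 2-fold lower (median log2 ratio -0.87), with the lysozyme gene Lyz2 at 940 and 376 CPM. Among 8 fibroblast markers 1 was higher and 1 lower (median 0.16). Of 7 measured cartilage markers 5 were at least 2-fold higher (median 1.54). Among 7 measured brown adipocyte markers 2 were higher, Elovl3 (also a sebaceous gene) at 40.8 and 759 CPM and Cidea at 19.1 and 119 CPM, and 3 were lower, with Cox8b and Ppargc1a among them.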
